A study of Mus musculus and Homo sapiens with 20 samples.

Results

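The 6 genes described here encode inhibitors of the cyclin-dependent kinases and were taken from the gene annotation by symbol, Cdkn2a, Cdkn2b, Cdkn2c, Cdkn2d, Cdkn1a and Cdkn1b, out of 21938 protein-coding mouse genes. Their human orthologues were taken from 20033 protein-coding genes.

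What was deposited for the 20 CUT&Tag libraries was a list of peak positions each, CUT&Tag being an assay in which an antibody directs a transposase to a chromatin mark so that the DNA beside it can be sequenced. Mouse embryonic stem (mES) cells, grown with LIF and the inhibitors CHIR99021 and PD0325901 on gelatin, were wild type (WT) or Tet2 knockout (KO, Tet2-/-), and haematopoietic stem and progenitor cells (HSPCs) were bone marrow cells without lineage markers and positive for c-Kit, from WT or Tet2-KO mice aged 6 to 8 weeks. Both cell types were profiled for H2AK119ub, the ubiquitin mark placed by Polycomb repressive complex 1, and for H3K27me3, the methyl mark placed by Polycomb repressive complex 2, whereas K562 cells, a human leukaemia line, were nucleofected with control siRNA (siControl) or siRNA against MBD6 (siMBD6) and profiled for H2AK119ub alone. The study used K562 cells with and without TET2, and the labels do not say which these were. Each of the 10 groups held 2 libraries. The paper calls its CUT&Tag replicates biological, but the labels do not say whether the 2 came from separate cultures or animals. How far the spread between them is technical is therefore not known. The Tet2-KO mES cells were an existing line and the mice carried the knockout in every tissue, so neither isolates an effect of TET2 loss in one cell type at one time.

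The proteins fall into families by structure. The INK4 proteins, p16 from Cdkn2a, p15 from Cdkn2b, p18 from Cdkn2c and p19 from Cdkn2d, bind CDK4 and CDK6 and keep cyclin D from activating them, while p21 from Cdkn1a and p27 from Cdkn1b bind cyclin–CDK complexes more widely, CDK2 among them. Cdkn2a also encodes Arf from a separate start, a protein that stabilizes p53 by restraining Mdm2, and p53 in turn activates Cdkn1a. Silencing of Ink4a, Arf and Cdkn2b by Polycomb complexes is a textbook route by which stem and progenitor cells keep dividing, and the locus opens as cells age or senesce.

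A value below, unless said otherwise, is promoter coverage, the percent of the window from 1 kb before to 1 kb after the annotated gene start that peaks cover in a library. Gene coverage is the same percent from the first to the last base of the gene. The lists give positions without heights or read counts, so depth is unknown, a value of 0 means that no peak was listed, and coverage measures how far a mark extends and not how strong it was. The lists held 85121 to 167378 peaks that covered 132.1 to 259.9 Mb. The second KO library of H3K27me3 in mES cells (102382 peaks) and the second WT library of H2AK119ub in HSPCs (112734 peaks) covered less than the other library of their group, 149.4 against 214.5 Mb and 138.8 against 171.2 Mb. The targeted genes cannot check the labels here, because a deletion or an siRNA need not alter a peak at the start. Tet2 promoter coverage was 0 in all 8 mES libraries and 0% to 68.1% in the 4 H2AK119ub libraries of HSPCs, and that of MBD6 was 0% to 40.8% in K562 cells. Each library came from many cells, so a mark in fewer cells and less of it per cell cannot be told apart. Both marks are repressive. H2AK119ub lay on the promoters of all 5 mES cell markers in mES libraries and of 4 of 5 HSPC markers in HSPC libraries. That mark therefore does not identify the cells by their active genes. H3K27me3 was 0% at the mES markers Pou5f1 and Nanog in mES cells and 100% in HSPCs, with Sox2 at 0% to 11.1% against 100%. At the HSPC marker Spi1 it was 100% in mES cells and 3.9% to 27.3% in HSPCs, with Runx1 at 33.1% to 64.9% against 0% to 28.0%. Esrrb, Zfp42, Kit, Gata2 and Ptprc overlapped between the cell types.

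The sequence before a start is shown for Cdkn2a and Cdkn1a, where the results below turn on which of the starts a mark covered. RefSeq (GRCm38.p6, the assembly mm10 is built on) held 9 windows for the 6 genes. The 250 bases before 4 of these starts are printed 5′ to 3′ on the strand of transcription, with each CG dinucleotide in capitals, since CG-rich DNA is where Polycomb complexes are usually found in mammals.
Cdkn2a, Arf start (chr4:89294620-89294869, minus strand): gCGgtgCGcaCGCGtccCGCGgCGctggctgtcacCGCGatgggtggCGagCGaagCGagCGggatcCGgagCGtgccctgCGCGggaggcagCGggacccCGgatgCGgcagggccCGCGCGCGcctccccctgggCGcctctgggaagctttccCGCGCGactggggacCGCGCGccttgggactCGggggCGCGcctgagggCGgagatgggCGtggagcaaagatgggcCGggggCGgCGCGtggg
Cdkn2a, p16 start (chr4:89282193-89282442, minus strand): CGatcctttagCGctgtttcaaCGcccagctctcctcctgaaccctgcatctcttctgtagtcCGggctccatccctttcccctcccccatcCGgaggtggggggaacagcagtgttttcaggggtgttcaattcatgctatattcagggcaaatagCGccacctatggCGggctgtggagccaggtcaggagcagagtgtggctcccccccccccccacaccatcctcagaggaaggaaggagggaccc
Cdkn1a, first start (chr17:29090729-29090978, plus strand): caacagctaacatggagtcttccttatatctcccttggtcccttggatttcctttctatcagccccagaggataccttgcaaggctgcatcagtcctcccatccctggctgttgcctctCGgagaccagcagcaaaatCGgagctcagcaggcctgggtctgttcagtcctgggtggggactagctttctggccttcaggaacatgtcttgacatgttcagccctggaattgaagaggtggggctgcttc
Cdkn1a, second start (chr17:29093519-29093768, plus strand): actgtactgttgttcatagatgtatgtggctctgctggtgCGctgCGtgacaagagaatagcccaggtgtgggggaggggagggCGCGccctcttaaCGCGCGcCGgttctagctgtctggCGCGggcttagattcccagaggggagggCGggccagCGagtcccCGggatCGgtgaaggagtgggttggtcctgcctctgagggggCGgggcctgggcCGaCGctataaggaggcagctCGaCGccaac

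The Arf window held 40 CG dinucleotides, more than 98.8% of the 32851 RefSeq windows of this length, whose median was 6. The p16 window held 7, close to that median, and the starts of one gene therefore lay in unlike DNA. At Cdkn1a the order ran the other way along the gene, with 2 at the first start and 19 at the second. The windows of Cdkn1b and of the first Cdkn2c start held 28 and 29, that of Cdkn2d 16 and that of Cdkn2b 12. The motif GGGCGG, searched on both strands, occurred 2 times before the Arf start and 2 times before the second Cdkn1a start and not before p16 or the first Cdkn1a start, and 32.7% of all windows held it.

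Every member carried H2AK119ub at its start in all 8 mouse libraries of that mark, as did 49.0% of all protein-coding promoters. H3K27me3 peaks touched 36.5% to 61.6% of all protein-coding promoters per library. They covered part of the promoter of 5 members in each of the 8 libraries of that mark, and Cdkn1a had none at its first start in any. The plot of promoter coverage by library shows these values for 9 starts.

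**Figure D1:**
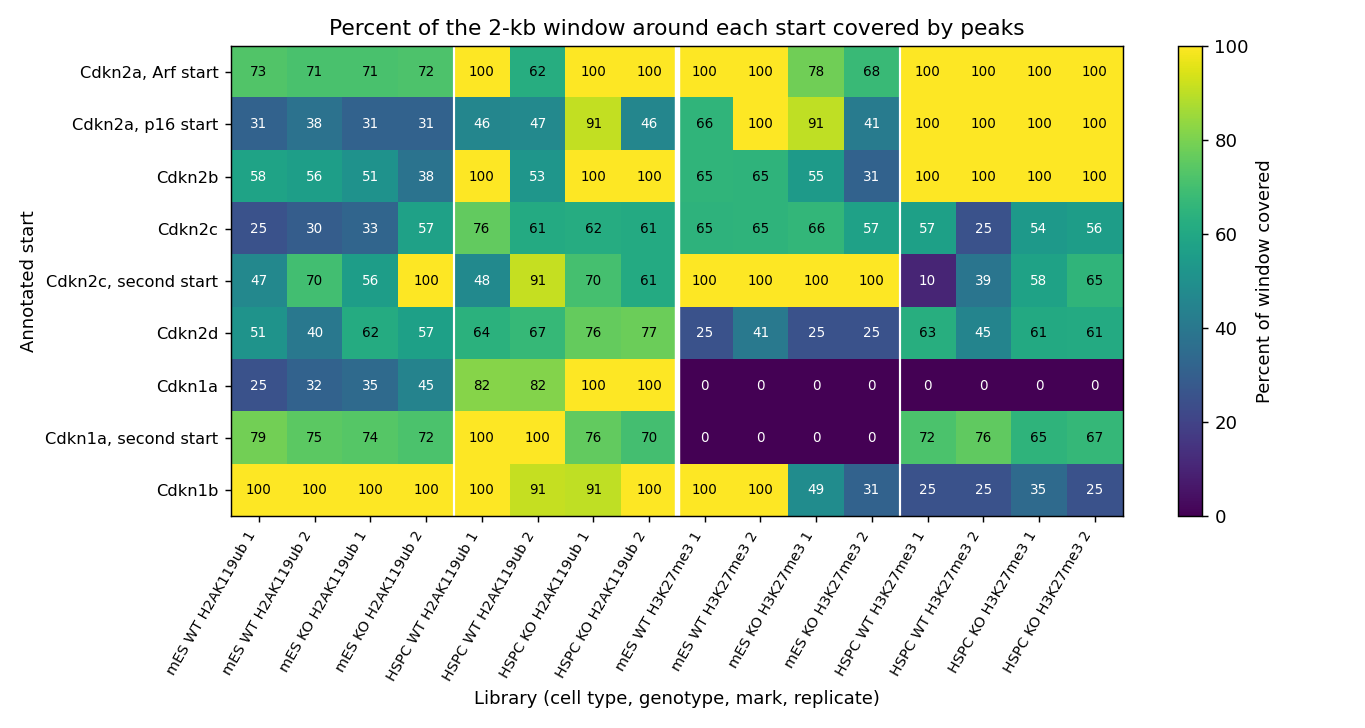
Percent of the 2-kb window around each annotated start covered by peaks (colour and printed value), with 9 starts of the 6 genes in rows and the 16 mouse libraries in columns, H2AK119ub on the left and H3K27me3 on the right. The first Cdkn1a start is at 0 in all 8 H3K27me3 libraries, and the Arf, p16 and Cdkn2b starts are at 100 in the 4 HSPC H3K27me3 libraries.

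Cdkn2a and Cdkn2b lie 11645 bp apart on chromosome 4 and are read in the same direction, Cdkn2b first. From the start of Cdkn2b to the end of Cdkn2a the locus spans 36569 bp (mm10 chromosome 4, bases 89274471 to 89311039). In HSPCs a single H3K27me3 peak ran across all of Cdkn2b, the sequence between the genes and the Arf start in each of the 4 libraries. It was 31134 and 31280 bp wide in the WT libraries and 31192 and 31120 bp wide in the KO libraries. Its ends were alike in all 4, between 22038 and 22244 bp before the Arf start and between 9009 and 9095 bp after it. A second peak, 14891 to 17318 bp wide, covered the p16 start, which lies 12461 bp after the Arf start. These 2 peaks together covered 97.9% to 98.3% of the locus, and 0.368% to 0.419% of all H3K27me3 peaks in these libraries were as wide as the first one.

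In mES cells the same locus was broken into 7 to 10 H3K27me3 peaks, the widest 7260 to 9426 bp. They covered 28.7% to 70.7% of it, and the 4 mES values did not overlap the 4 HSPC values. Of the sequence between the genes they covered 17.4% to 55.8%, against 100% in HSPCs. H2AK119ub lay in pieces in both cell types, with 21.05% to 27.3% of the locus covered in the mES libraries and 38.5% to 68.3% in those of HSPCs. The plot of peaks across the locus shows where the pieces lay. On the bases listed in both replicates, 100% of the H2AK119ub on Cdkn2a and Cdkn2b lay under H3K27me3 in HSPCs of either genotype and in mES WT, and in mES KO the shares were 90.3% on Cdkn2a and 83.9% on Cdkn2b. In HSPCs this was nearly fixed beforehand, since H3K27me3 covered 96.7% (WT) and 96.3% (KO) of Cdkn2a and 100% of Cdkn2b on such bases. In mES cells it covered 62.6% of Cdkn2a and 78.7% of Cdkn2b in WT, and 33.2% and 36.0% in KO.

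**Figure D2:**
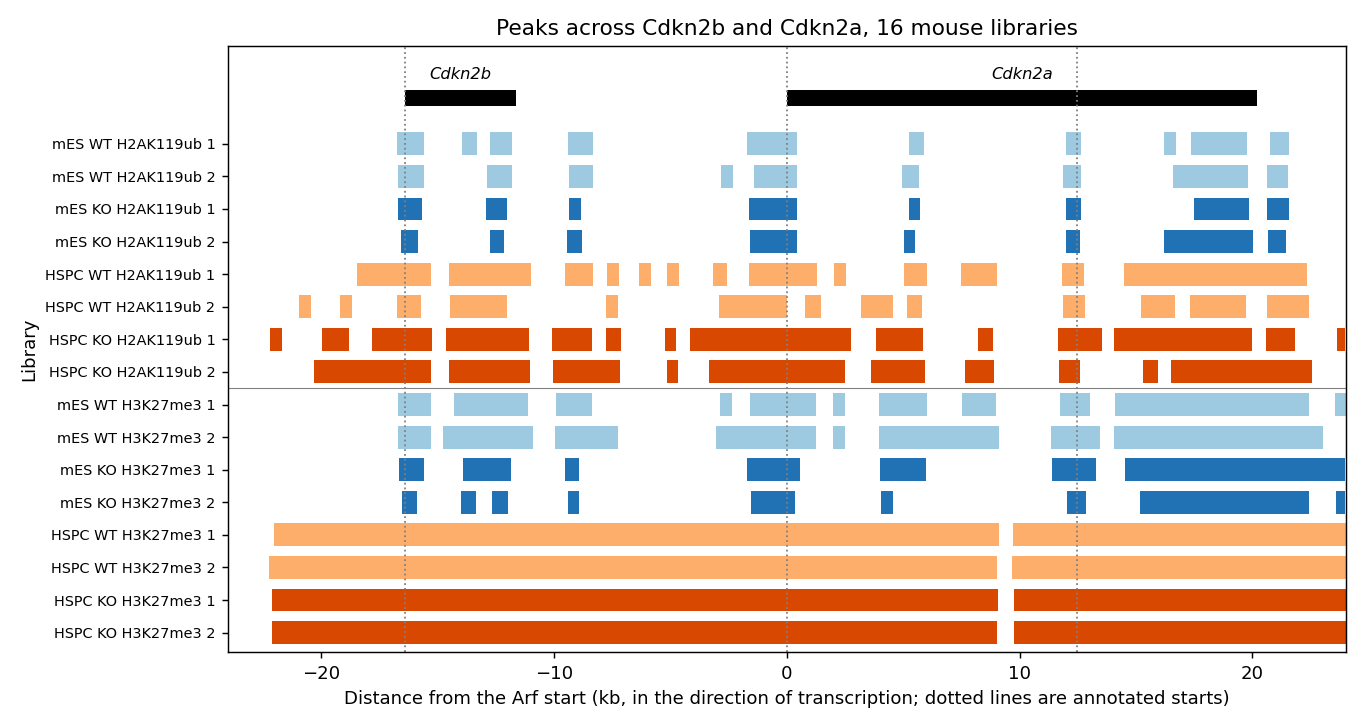
Peaks (bars) of the 16 mouse libraries across Cdkn2b and Cdkn2a by distance in kb from the Arf start, with the genes in black and dotted lines at the annotated starts. The 4 HSPC H3K27me3 libraries share one peak of 31120 to 31280 bp over Cdkn2b and the Arf start, whereas the mES libraries hold separate peaks.

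Promoter coverage of Cdkn2b was higher in HSPCs than in mES cells. In mES cells its H2AK119ub coverage was 57.9% and 56.2% in the WT libraries and 51.02% and 38.1% in the KO libraries. In HSPCs it was 100% and 52.7% in WT and 100% in both KO libraries, so that the second WT library alone reached into the mES range. Its H3K27me3 coverage was 65.3% and 65.2% in mES WT, 54.6% and 31.4% in mES KO, and 100% in each HSPC library. Averaged over both marks and genotypes, HSPCs exceeded mES cells by 41.6 percentage points (p = 0.00463, adjusted p = 0.0214, 2-sided exact permutation test of libraries within mark and genotype, Benjamini–Hochberg adjusted over all genes).

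Cdkn2d, the gene of p19-INK4d on chromosome 9, was the other member called. H2AK119ub covered 51.4% and 40.1% of its promoter in mES WT, 61.5% and 57.0% in mES KO, 63.9% and 67.0% in HSPC WT and 76.5% and 77.4% in HSPC KO. H3K27me3 covered 25.04% and 40.6% in mES WT, 25.04% in both mES KO libraries, 62.6% and 45.0% in HSPC WT and 60.9% and 61.2% in HSPC KO. For either mark the lowest HSPC library lay above the highest mES library. Of 21938 protein-coding promoters, 3413 showed this order for H2AK119ub and 5003 for H3K27me3. The difference of 23.6 points had p = 0.00154 in the exact permutation test, the smallest that these arrangements can give (adjusted p = 0.0115). Thus 2 of 6 members were called higher in HSPCs, beside 22.3% of all protein-coding promoters, and 0 of 6 lower, beside 7.25%. Cdkn2a had 16.1 points more in HSPCs (adjusted p = 0.0767, exact permutation test) and Cdkn1b 23.6 points less (adjusted p = 0.0767), and neither passed. By the same test both calls were lost with peaks of at least 1 kb only (adjusted p = 0.0517 each), that of Cdkn2b with a replicate block (0.0663) and that of Cdkn2d with 500 bp on each side of the start (0.0927).

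The H2AK119ub promoter coverage of Cdkn1a, the gene of p21, was far apart between the cell types. It was 25.04% and 31.6% in mES WT, 34.6% and 44.8% in mES KO, 81.7% and 81.6% in HSPC WT, and 100% in both HSPC KO libraries. All 4 HSPC libraries lay above all 4 mES libraries, as they did for this mark at 3413 of 21938 protein-coding promoters. Since H3K27me3 was 0 at this start in all 8 libraries of that mark, the mean over both marks was 28.4 points higher in HSPCs (adjusted p = 0.121, exact permutation test), which was not called.

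Over the whole gene more members were called for cell type, although the difference was smaller than at the promoter for Cdkn2b, Cdkn1a, Cdkn2d and Cdkn1b. Gene coverage was higher in HSPCs for 4 of 6 members, beside 25.5% of all genes, and lower for 1 of 6, beside 18.7%. The 4 were Cdkn2b (38.0 points), Cdkn2a (35.5 points), Cdkn1a (25.4 points) and Cdkn2d (22.3 points), and Cdkn1b was lower in HSPCs by 13.4 points, each with the smallest p of the exact permutation test (adjusted p = 0.00600). Cdkn2c, the gene of p18, separated the cell types over the gene for H3K27me3 and not for H2AK119ub. Its H3K27me3 gene coverage was 81.7% to 88.5% in the 4 mES libraries and 16.2% to 39.1% in the 4 HSPC libraries, which did not overlap. Of all genes, 17.3% were lower for that mark in all 4 HSPC libraries. The H2AK119ub gene coverage of Cdkn2c overlapped, at 27.4% to 57.8% in mES and 23.3% to 43.2% in HSPC libraries. The Cdkn2c difference over both marks was not called (−29.8 points, adjusted p = 0.0577, exact permutation test). At the Cdkn2c promoter both marks separated the cell types, in opposite directions. H2AK119ub covered 25.04% to 57.3% of it in mES and 61.0% to 75.8% in HSPC libraries. H3K27me3 covered 57.2% to 66.2% in mES and 25.04% to 56.7% in HSPC libraries, a narrow gap. Of 21938 promoters, 3413 were higher for H2AK119ub and 1909 lower for H3K27me3 in all 4 HSPC libraries.

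**Figure D3:**
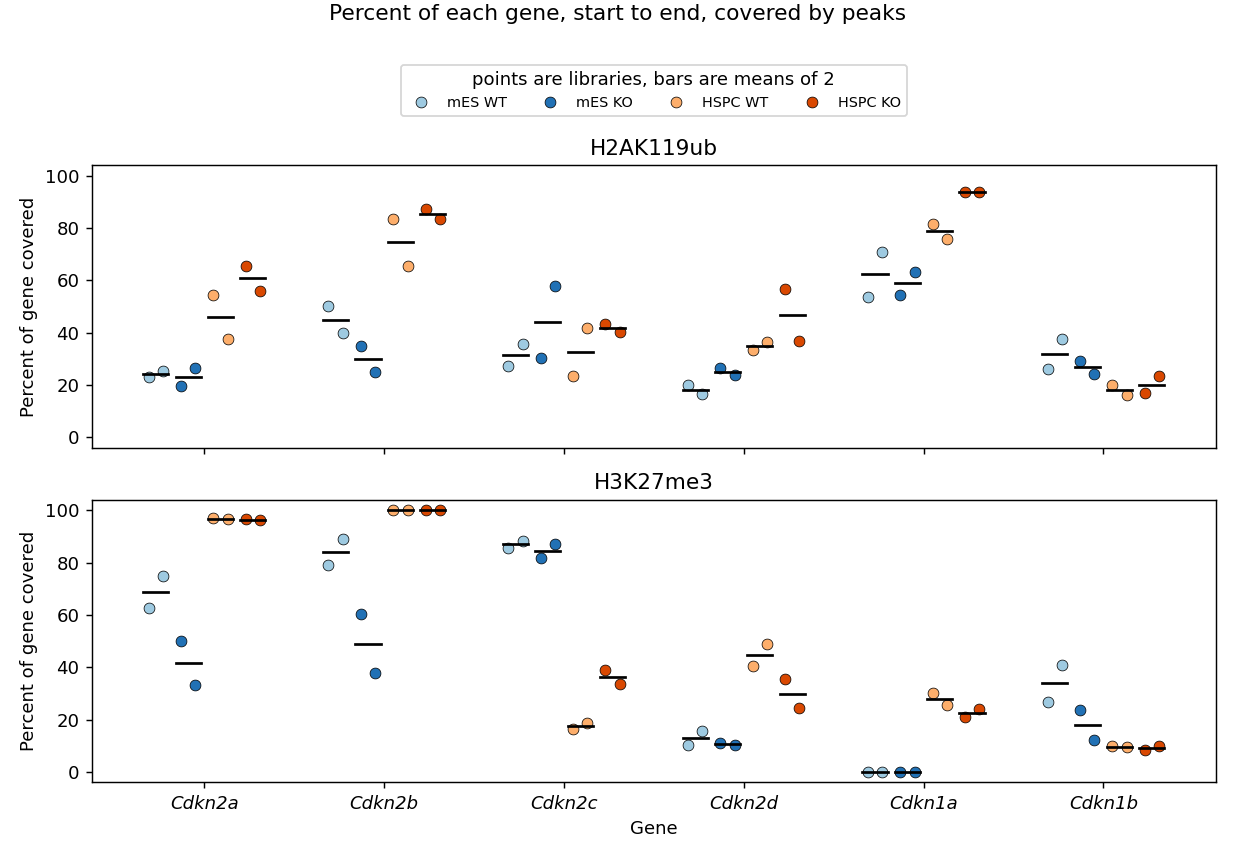
Percent of each gene, from start to end, covered by H2AK119ub (top) or H3K27me3 (bottom) peaks in mES cells (blue) and HSPCs (orange), WT light and KO dark; points are libraries and bars are means of 2. H3K27me3 on Cdkn2c stands at 81.7 to 88.5 in mES cells and at 16.2 to 39.1 in HSPCs, the opposite of its order on Cdkn2a and Cdkn2b.

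The marks differed most at Cdkn1a. H2AK119ub covered its first promoter by 62.4 points more than H3K27me3 (adjusted p = 0.00829, exact permutation test), with the same sign in all 4 combinations of cell type and genotype. Of all protein-coding promoters, 0.994% shared this pattern of an H2AK119ub peak in all 8 libraries and no H3K27me3 peak in any. At the second start, 2793 bp downstream and rich in CG, H3K27me3 was again 0 in the 4 mES libraries but covered 71.6% and 75.6% of the window in HSPC WT and 64.9% and 66.5% in HSPC KO. Those HSPC peaks were 2030 to 2477 bp wide and spanned the second start in each library. The first WT library also held a narrow peak near the third start, 6924 bp into the gene. H2AK119ub covered 71.6% to 78.6% of the same window in the 4 mES libraries and 70.0% to 100% in those of HSPCs. On the bases shared by replicates, all of the H3K27me3 on Cdkn1a in HSPCs lay under H2AK119ub. That mark itself covered 74.3% of the gene in WT and 91.5% in KO on such bases, so much overlap would arise from its extent.

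Cdkn1b and Cdkn2d were also called for the mark. H2AK119ub exceeded H3K27me3 by 49.0 points at Cdkn1b (adjusted p = 0.0285, exact permutation test) and by 18.7 points at Cdkn2d (adjusted p = 0.0139). In all, 3 of 6 promoters had more H2AK119ub, beside 30.3% of all promoters, and 0 of 6 had less, beside 6.84%. The Cdkn1a call was lost with equal numbers of peaks per library (51.0057 points, adjusted p = 0.0786, exact permutation test) and with peaks of at least 1 kb only (adjusted p = 0.150), those of Cdkn2d (0.0523) and Cdkn1b (0.0848) with a replicate block and that of Cdkn2d (0.0830) with 500 bp on each side. Over the whole gene the split was different, with Cdkn2a (−37.5 points) and Cdkn2b (−24.5 points) lower in H2AK119ub than in H3K27me3 and Cdkn1a higher (60.9 points), each at adjusted p = 0.00446 in the exact permutation test. That is 2 of 6 lower, beside 9.04% of all genes, and 1 of 6 higher, beside 42.2%. The marks were called on different libraries with lists of unlike length, so a difference between marks also carries that of the lists.

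**Figure D4:**
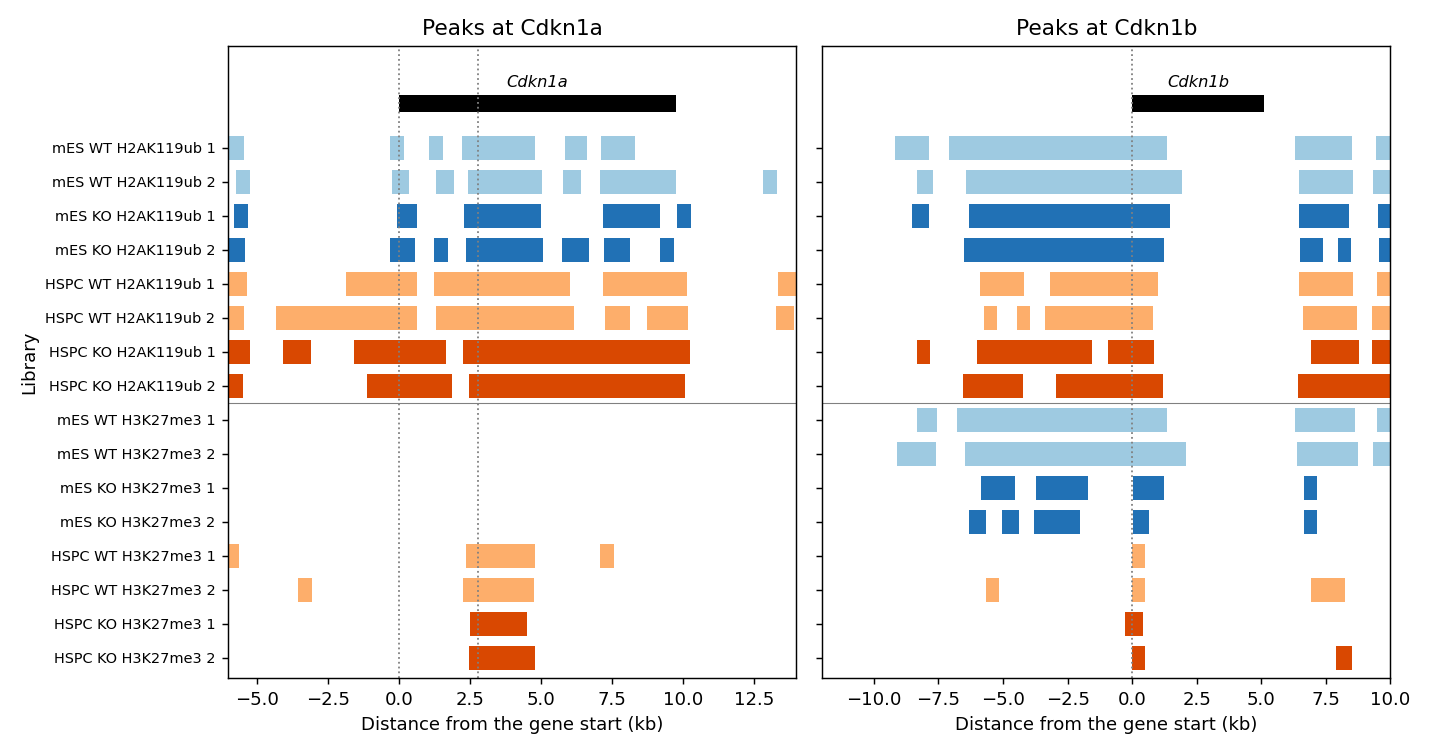
Peaks (bars) of the 16 mouse libraries at Cdkn1a (left) and Cdkn1b (right) by distance in kb from the gene start, with the genes in black and dotted lines at annotated starts. Within Cdkn1a, H3K27me3 is listed in HSPCs and not in mES cells, at the second start in all 4 HSPC libraries, and the peak over the Cdkn1b start in mES WT (8125 and 8571 bp) is in pieces in both mES KO libraries.

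Loss of Tet2 was compared with WT within each cell type and mark. With 2 libraries against 2, the smallest 2-sided exact permutation p is 0.333, so these differences carry no test of their own, and the groups are given as overlapping or not. In mES cells the H3K27me3 coverage of 3 promoters was lower in both KO libraries than in both WT libraries, and none was higher in both. Over all protein-coding promoters the shares were 16% lower and 1.9% higher. The 3 were Cdkn1b, Cdkn2a and Cdkn2b. Averaged over the 6 members, H3K27me3 coverage was 60.5% ± 1.84 (SD, n = 2) in WT and 40.5% ± 7.08 in KO, a difference of −19.99 points beside −5.78 points for the mean of all promoters. The difference was −15.0 points without the short second KO library and −22.1 points when every list was limited to the same number of peaks. All promoters together had less to lose than the members. In the mES WT libraries H3K27me3 touched 47.0% and 49.4% of them, with mean coverage of 31.0% and 33.6%. A promoter without a peak in WT cannot be lower in KO, which also limits the 16% above.

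At Cdkn1b, the gene of p27, H3K27me3 covered 100% of the promoter in both mES WT libraries and 48.8% and 31.3% in the KO libraries. In WT one peak of 8125 or 8571 bp reached from 6764 or 6476 bp before the start to 1360 or 2094 bp after it. In both KO libraries no peak lay over the start itself, and separate peaks of 627 to 1994 bp stood in the stretch that the WT peak spanned. H2AK119ub at the same promoter was 100% in all 4 mES libraries, in peaks of 7739 to 8419 bp over the start. The surroundings moved with this result. Within 5 Mb on each side of Cdkn1b, leaving out the nearest 50 kb, H3K27me3 peaks covered 637.3 and 813.4 kb in mES WT and 476.3 and 313.1 kb in mES KO, which is 45.6% less, while the whole lists covered 13.6% less. H2AK119ub peaks there covered 45.3% less in mES KO and 4.11% less over the whole lists. The part of that regional difference in the Cdkn1b values was not tested. In HSPCs the same region differed by −5.48% for H2AK119ub and 8.09% for H3K27me3, and Cdkn1b H3K27me3 promoter coverage was 25.04% in both WT libraries and 34.7% and 25.04% in KO.

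At the Arf start of Cdkn2a, H3K27me3 covered 100% in both mES WT libraries and 78.4% and 68.0% in mES KO. Over the whole gene the coverage was 62.8% and 75.1% in WT and 50.1% and 33.2% in KO. At the p16 start the genotypes overlapped, with promoter coverage of 65.6% and 99.8% in WT and 90.6% and 41.4% in KO. Cdkn2b had gene coverage of 79.0% and 88.9% in WT against 60.5% and 37.6% in KO. The surroundings of these genes differed less, with 6.77% less H3K27me3 within 5 Mb of Cdkn2a in mES KO. Cdkn2a, Cdkn2b and Cdkn1b were thus lower in both KO libraries over the whole gene as well, beside 21.5% of all genes, and 0 of 6 were higher, beside 5.37%. In HSPCs, by contrast, H3K27me3 covered 100% of the Arf and Cdkn2b promoters in all 4 libraries, so promoter coverage could not show a gain.

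H2AK119ub in mES cells was higher in both KO libraries for 3 promoters, Cdkn2c, Cdkn2d and Cdkn1a, and lower for 1, Cdkn2b, beside 10.2% and 8.91% of all promoters. At Cdkn2c the values were 25.04% and 29.7% in WT against 32.7% and 57.3% in KO. The Cdkn1a difference, 11.3 points, turned to −2.17 points with 2 kb on each side of the start, to −3.55 points over the whole gene and to −14.1 points with neighbouring peaks joined. At the second Cdkn1a start both KO libraries lay below both WT libraries, 73.8% and 71.6% against 78.6% and 75.0%. At the third start the genotypes overlapped. The mean over members was 55.1% ± 0.377 (SD, n = 2) in WT and 60.02% ± 2.11 in KO, a difference of 4.92 points that became −0.969 over whole genes. For the mean of all promoters the difference was 0.276 points.

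In HSPCs H2AK119ub promoter coverage was higher in both KO libraries for 2 members, Cdkn1a and Cdkn2d, beside 18.8% of all promoters, and lower in both for 0, beside 5.05%. The Cdkn1a difference of 18.4 points became −4.65 points with 2 kb on each side, and that of Cdkn2d, 11.4 points, became −2.10 points with neighbouring peaks joined. At the second Cdkn1a start the order was reversed, with 100% in both WT libraries against 76.0% and 70.0% in KO. At the third start KO was again higher, with 100% in both libraries against 42.0% and 45.9% in WT. Over the whole gene 3 of 6 members were higher in both KO libraries, beside 19% of all genes, and 0 lower, beside 9.4%. They were Cdkn1a, Cdkn2a and Cdkn2d. Cdkn1a held 81.7% and 75.9% in WT and 93.7% and 93.8% in KO. Cdkn2a held 54.4% and 37.5% in the WT libraries against 65.6% and 55.8% in those of KO. The lower WT value came from the short second WT library, and the other lay close to the lower KO value. Within 5 Mb of Cdkn2a, measured as for Cdkn1b, H2AK119ub peaks covered 144.1 and 92.1 kb in WT and 161.7 and 165.6 kb in KO. That is 38.6% more, a larger rise than over the whole lists. The part of this regional rise in the Cdkn2a values was not tested. The mean of promoter coverage was 78.1% ± 12.4 (SD, n = 2) in WT and 88.9% ± 1.11 in KO. The member difference was 10.8 points, beside 6.19 points for the mean of all promoters. It rested on the short second WT library, since it was 2.03 points without that library and 19.6 points without the first WT library. With neighbouring peaks joined it was 0.558 points.

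H3K27me3 in HSPCs separated the genotypes at the first start of no member, and 8.79% of all promoters were lower and 9.68% higher in both KO libraries. At second starts Cdkn2c was higher in KO, 57.5% and 65.5% against 10.2% and 38.9% in WT. Cdkn1a was lower there, 64.9% and 66.5% in KO against 71.6% and 75.6% in WT. The mean over members was 53.3% ± 5.81 (SD, n = 2) in WT and 57.6% ± 0.866 in KO. The difference was 4.31 points, beside 0.822 points for the mean of all promoters. It was 0.204 points without the second WT library and 8.42 points without the first. Over the whole gene 1 member was higher in both KO libraries, beside 14.9% of all genes, and 3 were lower, beside 18.4%. The one higher was Cdkn2c, where gene coverage was 16.2% and 18.8% in WT and 39.1% and 33.7% in KO. At Cdkn2d the order was reversed, 40.6% and 48.8% in WT and 35.3% and 24.2% in KO. Cdkn1a held 30.3% and 25.4% in the WT libraries against 20.8% and 23.9% in those of KO, and the mean of Cdkn2a fell by 0.493 points.

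Tested across both cell types and marks, no member promoter was called for Tet2 loss. The counts were 0 of 6 lower, beside 0% of all promoters, and 0 of 6 higher, beside 0%, and no member had an unadjusted exact permutation p under 0.05. Cdkn1a came nearest at 7.43 points higher in KO (p = 0.0556, adjusted p = 0.990, exact permutation test), and Cdkn1b was 13.8 points lower (p = 0.25, adjusted p = 1). A call in this test needs at least 678 genes at its smallest p of 0.00154. By limma's moderated test on the same values, which assumes even spread and is not made for values bounded at 0 and 100, both genes were called (adjusted p = 0.0278 and 0.0345), beside 3.99% of all promoters.

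The response to Tet2 loss was also compared between the cell types. The difference between them was called at 0 of 6 promoters in either direction by the exact permutation test, beside 0% and 0% of all promoters. Cdkn2b had the one unadjusted p under 0.05, with a KO minus WT difference 29.2 points higher in HSPCs than in mES cells (exact permutation p = 0.0278, adjusted p = 0.789). Limma called 1 member, Cdkn1b, at 32.2 points (adjusted p = 0.0148), beside 4.56% of all promoters.

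In K562 cells H2AK119ub was listed at the gene start of CDKN1A alone. It covered 64.9% and 66.1% of that promoter in siControl and 64.9% and 65.4% in siMBD6, which overlapped. No member separated the siRNA groups in either direction, where 2.2% of all promoters were lower and 13.4% higher in both siMBD6 libraries. Over the 6 members the mean was 10.9% ± 0.141 (SD, n = 2) in siControl and 10.9% ± 0.0589 in siMBD6. This is a difference of −0.0666 points, beside 4.66 points for the mean of all promoters. The other members were at 0 in every library, so the member mean follows CDKN1A alone and does not measure a response of the 6 genes. Gene coverage of CDKN1A was 52.3% and 39.1% in siControl and 57.1% and 66.7% in siMBD6, and that of CDKN2D was 19.3% and 0% against 26.3% and 24.1%. These 2 of 6 members were higher in both siMBD6 libraries, beside 34.6% of all genes, and 0 were lower, beside 1.28%. Across all genes the mean gene coverage was 3.84 points higher in siMBD6, whose lists were longer. CDKN1B had no peak at its annotated protein-coding start, 31870 bp inside the gene, and CDKN2C had none at its first start, at most 7.496% of the window covered at the next and 25.04% in each library at the last.

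CDKN2A and CDKN2B had no peak anywhere in the gene. K562 cells are known to carry a deletion of 9p21, the band of chromosome 9 that holds both genes, and DNA that is absent can hold no peak. Whether these cultures lack the band was not tested. The libraries held no peak within 2 Mb of the CDKN2A start, and 0 of the 25 protein-coding genes starting there had one. The stretch without a peak ran from between 19.1 and 19.5 Mb to between 26.7 and 32.4 Mb of chromosome 9 (hg38), 7.17 to 13.3 Mb long. Each library held 4 to 24 stretches without a peak on the autosomes that were at least as long, and whether those hold genes was not examined. In the mouse libraries of both marks, 78 to 150 peaks lay within 2 Mb of the Cdkn2a start.

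**Figure D5:**
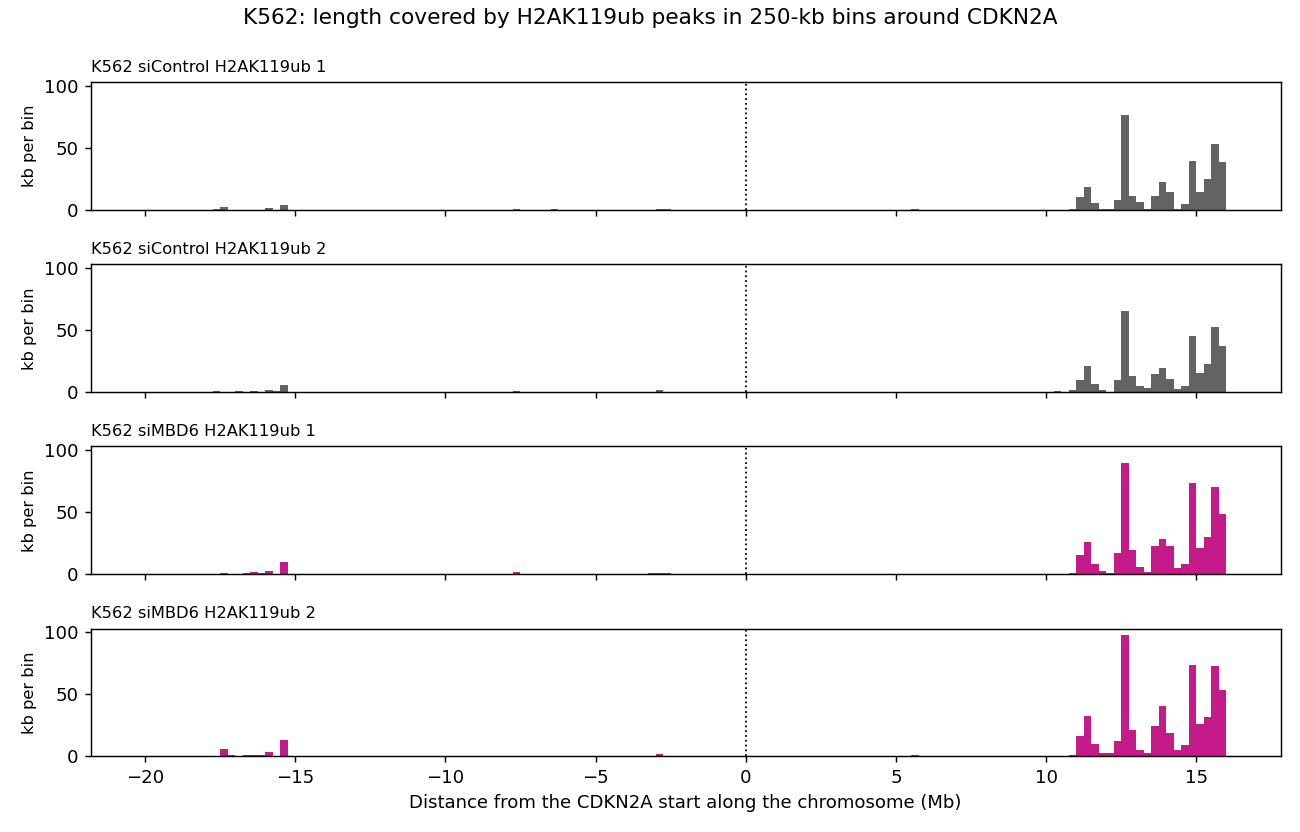
Length covered by H2AK119ub peaks (kb per 250-kb bin) by distance in Mb from the CDKN2A start (dotted line) in the 4 K562 libraries, siControl in grey and siMBD6 in magenta. No library has a peak within 2 Mb of the start, and dense coverage begins over 10 Mb to the right.

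The wider set of 17 genes of the G1/S transition, cyclins, kinases, the Rb and E2F families, Cdkn1c, Trp53 and Mdm2, gives the members a setting. At their promoters 9 of 17 had more coverage in HSPCs and 0 less, and 11 of 17 had more H2AK119ub than H3K27me3 and 0 less, all by the exact permutation test at adjusted p under 0.05. The 9 were Ccnd1, Ccnd3, Ccne1, Ccne2, Cdk4, Rbl2, E2f1, E2f3 and Trp53, with 19.2 to 57.7 points more, Ccne1, a cyclin that activates Cdk2, at the top. The 11 for the mark were Ccnd3, Ccne1, Ccne2, Cdk2, Cdk4, Cdk6, Rbl2, E2f1, E2f2, E2f3 and Trp53, with 20.8 to 68.3 points more. None was called for Tet2 loss or for its difference between cell types. Cdkn1c, the gene of p57 and the nearest relative of Cdkn1a and Cdkn1b, was unlike them and had its window wholly covered in each of the 16 mouse libraries, like 337 of all protein-coding genes (1.54%).

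With Tet2 loss, 2 of the 17 were lower and 1 higher in both KO libraries for mES H2AK119ub, and 2 lower and 0 higher for mES H3K27me3. The widest differences were Ccne2 (45.0% and 68.6% in WT, 16.1% and 10.99% in KO) and Rb1, the retinoblastoma gene (71.0% and 68.1% in WT, 55.4% and 39.5% in KO). In HSPCs 1 was lower and 3 higher for H2AK119ub, led by Mdm2 (33.6% and 60.6% in WT, 97.2% and 63.7% in KO). With H3K27me3 as the mark, 3 were lower in HSPCs and 1 higher, and the widest difference was that of Mdm2, 61.9% and 0% in WT and 0% in both KO libraries, where the groups overlapped. In K562 cells 2 were lower and 0 higher in both siMBD6 libraries, RBL1 at 33.6% and 25.04% in siControl and 0% in siMBD6, and E2F1 at 48.4% and 55.0% against 24.5% and 25.04%.

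For each member the 2 protein-coding genes with the closest promoter values over the 16 mouse libraries, measured as the mean absolute difference and starting more than 100 kb away, were as follows. Cdkn2a was closest to Kcng3 (1.95 points) and Ppp1r26 (3.98 points). Cdkn1a was closest to Unkl (2.98 points) and Supt4a (4.41 points), and Cdkn1b to Bst2 (4.87 points) and Fkbp5 (6.92 points). Cdkn2d was closest to Ogfod3 (5.71 points) and Azi2 (5.98 points), and Cdkn2b to Nfkbie (5.94 points) and Celsr1 (7.52 points). Cdkn2c had the least close match, Fgfbp3 (9.51 points) and Fam126a (10.0 points). All genes share the same libraries, so likeness here includes what list length gives to every gene.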

How the data were processed

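CUT&Tag libraries were profiled in mES cells, HSPCs and K562 cells. Reads were trimmed by the authors (Trimmomatic 0.39) and mapped to mm10 or hg38 (Bowtie2 2.4.1), duplicates were removed with Picard, and broad peaks were called per library with MACS2. HOMER 4.9 is also named in the submitters' processing notes. They deposited one list of peak positions per library, with no heights, counts or spike-in scaling, and the most frequent width was 501 bp in every list, with at most 6 narrower peaks in any, so short stretches between peaks depend on the caller.

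Coverage was computed here with Python 3.11.15, numpy 2.4.6 and pandas 2.3.3, checked against bedtools 2.31.1, over windows of 1 kb on each side of GENCODE gene starts (vM21 and v44). Starts of protein-coding transcripts within 500 bp were joined. Genotype, cell type, mark and the genotype by cell type difference were tested per gene over 16 mouse libraries by a 2-sided exact permutation test within 4 strata, with Benjamini–Hochberg adjustment over all protein-coding genes at 0.05. The code was tested on simulated data. Differences within one cell type and mark have no test. Named genes were the members, the targeted genes, the wider G1/S genes called or with the widest difference, and the closest genes. The members and lists were chosen with earlier results of these data known. Alternatives were other windows, whole genes, wide, joined or equal numbers of peaks, fewer genes, limma 3.58.1, a replicate block and leaving out each library.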

Additional observations from a re-analysis of the deposited data

Results flagged for a closer look

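Ccne2, a cyclin that activates Cdk2, had opposite directions in the 2 cell types for H2AK119ub at its promoter. KO minus WT was −43.2 points in mES cells, where both KO libraries lay below both WT libraries, and 16.2 points in HSPCs, where both KO libraries lay above both WT libraries. The difference between cell types for this mark alone was not tested. No other gene among the members and the wider G1/S set showed this at its promoter, and no member showed it over the whole gene.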

How the results depend on the processing

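The files hold peak positions alone, so depth and signal over background could not be set beside any value, and the extent of a mark depends on where the caller ended each peak. Of the alternatives run, those that change the window or the peaks moved results most, and the cause was not tested.

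The 2 members called for cell type were 4 with 2 kb on each side, 5 over whole genes, 5 by limma, 1 with 500 bp on each side and 0 with peaks of at least 1 kb only, where fewer peaks were left and the adjusted p of Cdkn2b and Cdkn2d was 0.0517 in the exact permutation test. The 3 called for the mark were 2 with peaks of at least 1 kb only. Limma called 2 members for genotype and 1 for the genotype by cell type difference. Testing fewer genes, joining peaks within 1 kb or taking equal numbers of peaks from the head of each list changed none of these 4 counts by over 1.5 times.

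With libraries swapped only within the same replicate number (replicate block), 1 member was called for cell type and 1 for the mark, and Cdkn2b (adjusted p = 0.0663) for cell type and Cdkn2d (0.0523) and Cdkn1b (0.0848) for the mark were lost in the exact permutation test, whose smallest p is larger there. The numbers name libraries and give no pairing, as correlations of same-numbered deviations ran from −0.135 to 0.0305. Crossing the numbers in mES H3K27me3, chosen after seeing the data, left 0 calls for genotype and 0 for the genotype by cell type difference. The block leaves the mean differences of the 5 comparisons as they are, −19.99 points for mES H3K27me3 among them.

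The mean member difference became 2.51 (2 kb on each side) and −0.969 (whole genes) for mES H2AK119ub, −13.9 (whole genes) for mES H3K27me3, 0.558 (peaks within 1 kb joined) for HSPC H2AK119ub, −0.426 (whole genes) and 9.34 (peaks of at least 1 kb) for HSPC H3K27me3, and 3.02 (2 kb), −0.191 (500 bp), 5.30 (whole genes) and 2.86 (joined) for K562, from −0.0666. Leaving out 1 library gave 3.42 to 6.41 for mES H2AK119ub, −25.0 to −15.0 for mES H3K27me3, 2.03 to 19.6 for HSPC H2AK119ub, 0.204 to 8.42 for HSPC H3K27me3 and −0.167 to 0.0333 for K562, where the sign turned without the second siControl library. It gave 0 calls for genotype and for the genotype by cell type difference, 2 to 3 for cell type and 3 for the mark.

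Single members that were not called turned sign as follows. For genotype, Cdkn2a became 1.35 and Cdkn1a −1.71 with 2 kb, Cdkn2a 4.01 and Cdkn2c −0.837 with 500 bp, Cdkn1a −3.52 with peaks joined and Cdkn2d −0.156 with equal numbers of peaks. For cell type, Cdkn2c became −6.10 with 2 kb, −29.8 over the gene and −16.9 with peaks joined, and Cdkn2a −1.14 with 500 bp. For the mark, Cdkn2c became 0.416 with 2 kb, 0.912 with 500 bp and 7.38 with peaks joined, and Cdkn2b 0.637 with 500 bp. For the genotype by cell type difference, Cdkn1a became −1.24 with 2 kb, −6.02 with 500 bp and −2.01 with equal numbers, Cdkn2c 9.09 over the gene, and Cdkn2d −3.76 over the gene and −0.312 with peaks joined. Leaving out 1 library gave −6.84 to 2.58 for Cdkn2a and −8.69 to 3.13 for Cdkn2b for genotype and −11.8 to 4.00 for Cdkn2c for the difference between cell types. Within comparisons, Cdkn1a became −2.17, −3.55 and −14.1 for mES H2AK119ub (2 kb, gene, joined) and −4.65 for HSPC H2AK119ub (2 kb), and Cdkn2d −2.10 for HSPC H2AK119ub (joined).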
